A study of Mus musculus with 3 samples.

Results

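A set of 9 lysosomal genes, of the 31053 genes measured, was followed by symbol across the cell classes of control and stroke mouse brain. They encode 4 cysteine cathepsins (Ctsb, Ctss, Ctsl and Ctsz), the aspartic protease cathepsin D (Ctsd), the membrane glycoproteins Lamp1 and Cd68, the alpha subunit of beta-hexosaminidase (Hexa) and progranulin (Grn). Brain tissue came from mice of strain C56BL6, as the labels spell it, aged 10 weeks. The control group was healthy, the ischemic stroke group had a middle cerebral artery closed with a suture, and the hemorrhagic stroke group had collagenase IV injected into the striatum. Tissue of several mice per condition was dissociated and pooled in 1 library per condition for droplet single-cell RNA sequencing (scRNA-seq). How long after stroke the tissue was taken is not stated in the labels. Collagenase opens vessels from within the tissue, so this model lacks the artery rupture of a clinical bleed, and pooling leaves no measure of the spread between mice.

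Lysosomes are acidic organelles in which proteases, glycosidases and lipases break down material that a cell has engulfed or recycled. Cathepsins are made as inactive precursors and are activated in the acidic lumen, while heavily glycosylated membrane proteins line the organelle. Microglia, the resident phagocytes of the brain, clear dying cells, myelin debris and synapses through this compartment, and loss of several of these genes causes neurodegeneration or lysosomal storage disease.

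The matrix gives counts of unique molecular identifiers (UMIs), each standing for 1 captured RNA molecule, for 35968 barcodes. A suffix from 1 to 3 on each barcode marks the library, but the sources used here do not tie a suffix to a condition. Libraries 1, 2 and 3 were therefore described side by side, no condition was assigned, and with no replicates no test was made. Their totals were 72498768, 105957232 and 69270514 UMIs, and 110 barcode sequences occurred in more than 1 library. Cells with at least 1000 UMIs and at most 30% mitochondrial UMIs were kept, which left 31982 cells with a median of 6147 UMIs.

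Promoters of 8 of the 9 genes were found in the RefSeq table of build GRCm38.p6, and 3 are shown because they differ in the letters that factors of the lysosome and of macrophages are known to bind. The E-box CACGTG and the longer TCACGTGA, which contains it, are bound by TFEB and its relatives, the regulators of lysosomal genes. GAGGAAGT is a form of the site of PU.1, the lineage factor of macrophages. Capitals mark these letters on either strand. The windows run from 250 bases before to 50 after the start site, at chr7:142387778-142388077 on the minus strand for Ctsd, chr8:13158911-13159210 on the plus strand for Lamp1 and chr3:95526536-95526835 on the plus strand for Ctss.
Ctsd: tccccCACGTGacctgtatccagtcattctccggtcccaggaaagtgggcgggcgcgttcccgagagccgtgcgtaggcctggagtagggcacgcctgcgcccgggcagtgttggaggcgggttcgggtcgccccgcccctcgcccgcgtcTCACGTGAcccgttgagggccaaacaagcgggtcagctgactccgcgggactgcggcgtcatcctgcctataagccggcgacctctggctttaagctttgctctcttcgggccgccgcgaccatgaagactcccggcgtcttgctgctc
Lamp1: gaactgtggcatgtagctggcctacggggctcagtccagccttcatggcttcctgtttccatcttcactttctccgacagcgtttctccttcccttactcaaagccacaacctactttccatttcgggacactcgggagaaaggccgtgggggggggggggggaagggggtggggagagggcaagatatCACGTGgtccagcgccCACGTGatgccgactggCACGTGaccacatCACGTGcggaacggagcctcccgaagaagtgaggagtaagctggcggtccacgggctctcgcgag
Ctss: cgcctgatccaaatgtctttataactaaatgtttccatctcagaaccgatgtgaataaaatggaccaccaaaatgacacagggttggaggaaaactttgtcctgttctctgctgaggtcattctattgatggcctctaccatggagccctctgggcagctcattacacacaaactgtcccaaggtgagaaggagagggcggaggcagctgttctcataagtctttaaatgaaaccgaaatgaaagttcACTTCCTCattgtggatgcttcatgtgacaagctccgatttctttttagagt

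CACGTG stood in 3 of the 8 promoters (Ctsd, Lamp1 and Ctsl), against 7.15% of the 32851 promoters in the table. TCACGTGA stood in 1 of the 8 (Ctsd), against 0.974% of all promoters. GAGGAAGT stood in 1 of the 8 (Ctss), against 3.20% of all. Lamp1 held 4 copies of CACGTG, at 61, 45, 28 and 15 bases before the start site, and Ctsd held 2. None of the 3 motifs was in the windows of Ctsz, Cd68, Hexa or Grn. A match describes letters only and was not set against binding data.

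The genes lie apart in the genome. In GENCODE M21 on GRCm38, Ctsb is at chr14:63122462-63145923 on the plus strand, Ctsd at chr7:142375911-142388038 on the minus strand, Ctss at chr3:95526786-95556403 on the plus strand, Ctsl at chr13:64359337-64370890 on the minus strand and Ctsz at chr2:174427493-174439039 on the minus strand. Lamp1 is at chr8:13159161-13175338 on the plus strand, Cd68 at chr11:69664213-69666153 on the minus strand, Hexa at chr9:59539540-59565109 on the plus strand and Grn at chr11:102430315-102437048 on the plus strand. All are protein coding. The RefSeq windows searched for motifs do not all sit at these GENCODE gene starts. For Ctsd the window crosses the GENCODE start at 142388038, and TCACGTGA lies inside the gene model. For Ctsl the window, chr13:64370471-64370770, lies wholly inside the gene model. Gene models named Gm49369, Hmgb1-ps5 and Gm49230 overlap Ctsd, Ctss and Ctsl on the same strand, and how reads there were shared was not tested.

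Cells were put into 13 classes with at least 50 cells by the raw UMIs of marker genes. Microglia-gated cells had C1qa, C1qb and C1qc together at 0.5% or more of their UMIs; these encode the complement subunits that microglia make in the brain. The gate took 12800 cells, 3685 of library 1, 6538 of library 2 and 2577 of library 3. Its label was checked with 10 markers of resting microglia that the gate did not use. The purinergic receptor gene P2ry12 was found in 73.4% of gated cells and 4.07% of the rest, Tmem119 in 72.6% and 3.52%, and the chemokine receptor gene Cx3cr1 in 91.1% and 8.04%. The cut fell in a sparse range, with 197 cells at 0.4 to 0.5% and 166 at 0.5 to 0.6%. Border-macrophage-like cells, 174 cells of the same gate with markers such as Mrc1 and Pf4, came mostly from library 3 (154 cells). The 1044 cells that passed more than 1 of the other gates and the 2000 that passed none were left out of the classes.

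Microglia-gated cells carried the highest share of the 9 transcripts. Together they made up 2.57% of all UMIs there, at 2.66%, 2.71% and 1.91% in libraries 1, 2 and 3. Border-macrophage-like cells followed at 1.14% and neutrophil-like cells at 0.582%. The share was 0.259% in choroid-plexus-like, 0.252% in astrocyte-like and 0.249% in oligodendrocyte-like cells, 3 classes that hardly differed. The lowest share, 0.0809%, was in neuroblast-like cells. All 9 genes passed the minimum of 10 CPM in some class, where CPM are the UMIs of a gene per 1000000 UMIs of the class, and 8 of them were highest in microglia-gated or border-macrophage-like cells. The same held for 6.42% of the 13436 genes above that minimum.

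**Figure D1:**
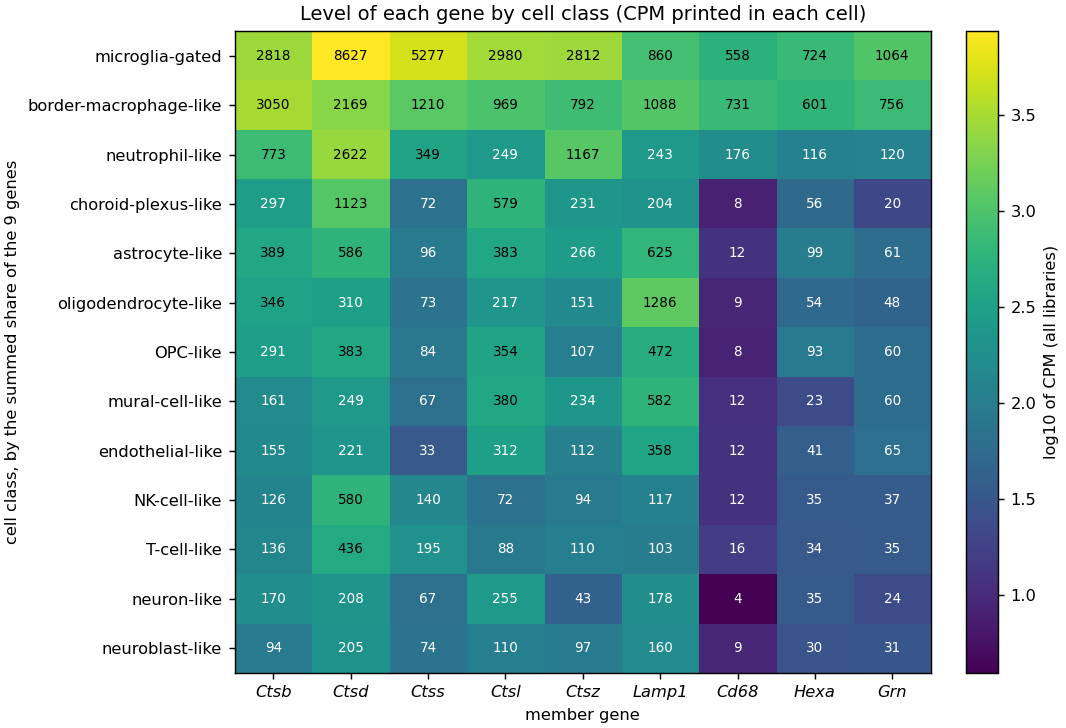
Level of each of the 9 genes (columns) in the 13 cell classes (rows, ordered by the summed share), in CPM of the summed UMIs of all libraries, coloured by its log10. The top row holds 6 of the 9 column maxima, Ctsb and Cd68 peak in border-macrophage-like cells, and Lamp1 peaks at 1286 CPM in oligodendrocyte-like cells. The border-macrophage-like level of Ctsb, 3050 CPM and mostly of library 3, lies between the microglia-gated levels of libraries 1 and 2 (2989.7 and 3119 CPM).

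Levels below are CPM of the summed UMIs of a class, and since the kit tags each molecule at its 3' end they are not divided by transcript length. Ctsd was the most abundant of the 9 in microglia-gated cells. Cathepsin D is the main aspartic protease of the lysosome. Its level was 9392 CPM in library 1, 8694 in library 2 and 6919.9 in library 3, or 8627 over all (95% interval 8610 to 8643, which like all intervals here covers counting error only). Library 3 was the lowest. Neutrophil-like cells were next at 2622 CPM, 3.29-fold lower, and border-macrophage-like cells had 2169. Choroid-plexus-like cells, the epithelium that makes cerebrospinal fluid, had 1123 CPM, with close values of 1128 and 1121 in the 2 libraries that held at least 20 of them.

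Ctss encodes cathepsin S, a protease of antigen-presenting cells that trims the invariant chain of MHC class II. Microglia-gated cells had 5293, 5430.2 and 4712 CPM in the 3 libraries. This was the steepest contrast with the other classes, 15.1-fold over neutrophil-like cells at 349 CPM and 158-fold over endothelial-like cells at 33.4 CPM. Border-macrophage-like cells had 1210 CPM (1149.9 to 1272), below every library of the microglia gate.

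Ctsb, Ctsl and Ctsz stood at similar levels in microglia-gated cells. Ctsb, a cathepsin with both endopeptidase and exopeptidase activity, had 2989.7, 3119 and 1443 CPM. Ctsl, an endopeptidase of broad specificity, had 2687, 3438 and 1949.7 CPM. Ctsz, an exopeptidase that removes single residues from the carboxyl end, had 2869.7, 3159 and 1491 CPM. For each of the 3 genes library 3 was the lowest, and the ranges over libraries of the 3 genes overlapped. Outside the gate they differed. Ctsz was next highest in neutrophil-like cells at 1167 CPM, only 2.41-fold below microglia-gated cells, whereas Ctsl was next highest in choroid-plexus-like cells at 579 CPM. The 20 neutrophil-like cells of library 3 had less Ctsz (186 CPM) than those of libraries 1 and 2 (1254 and 1393 CPM), and less Ctsd (1067 CPM, against 2969 and 2089.8).

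Lamp1, which encodes a major glycoprotein of the lysosomal membrane, was the exception. Oligodendrocyte-like cells, the myelin-forming glia, had 1242, 1169 and 1406 CPM in the 3 libraries. Microglia-gated cells had 876, 841 and 896 CPM. Oligodendrocyte-like cells were thus higher in each library. Astrocyte-like cells (625 CPM), mural-cell-like cells (582 CPM) and OPC-like cells (472 CPM, oligodendrocyte precursors) followed, and T-cell-like cells were lowest at 103 CPM. The fold between microglia-gated cells and the middle of the 11 classes outside the gate was 3.54 for Lamp1, against 11.7 to 71.2 for the other 8 genes.

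Cd68 encodes a macrophage glycoprotein of the same family. Microglia-gated cells had 579, 595 and 390.3 CPM, border-macrophage-like cells 731 CPM and neutrophil-like cells 176 CPM. The other 10 classes lay between 3.93 and 15.8 CPM. Hexa, which removes terminal hexosamines from gangliosides, had 743, 764 and 551 CPM in microglia-gated cells and at most 116 CPM outside the gate. Grn, a secreted and lysosomal growth factor precursor whose loss causes frontotemporal dementia in people, had 1165, 1097 and 757 CPM there and at most 120.4 CPM elsewhere outside the gate. For both genes the next class was neutrophil-like, 6.24-fold lower for Hexa and 8.84-fold lower for Grn.

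Within library 3, which held most border macrophages, the 2 kinds of macrophage could be set side by side. Border-macrophage-like cells had more Ctsb (3023 CPM against 1443 in the whole gate), more Cd68 (758 against 390.3) and more Lamp1 (1092 against 896). They had less Ctsd (2132 against 6919.9), less Ctss (1148 against 4712), less Ctsl (975 against 1949.7) and less Ctsz (780.3 against 1491). Hexa (593 against 551) and Grn (718 against 757) lay close together. The order of the cathepsins thus differed between these cells, with Ctsb first in border-macrophage-like and Ctsd first in microglia-gated cells.

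In droplet data free RNA gives UMIs in cells that do not express a gene, so each level outside the gate was set against what the C1q UMIs of that class would carry. The expected UMIs of a gene were the C1q UMIs of the class times the ratio of the gene to C1q in microglia-gated cells of the same library, and a ratio of measured to expected UMIs near 1 is what carried UMIs alone would give. C1q UMIs per cell outside the gate ran from 1.15 in endothelial-like to 4.93 in choroid-plexus-like cells. C1q also set the gate, so cells with a C1q share at or above its limit were not in these classes. The C1q UMIs of a class, and with them the expected UMIs, were thus capped by the gate. The part of this cap in the ratios was not tested. Of 99 pairs of gene and class, 80 had a ratio of at least 1.5. Among all genes with at least 10 CPM in some class, 89.5% of 147620 pairs did, so nothing about the 9 genes is read from the count itself.

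Ctss and Cd68 reached a ratio of 1.5 in 2 and 3 of the 11 classes. Ctss lay between 0.903 and 1.45 in 9 of 11 classes and was above 1.5 in T-cell-like (1.78) and neutrophil-like cells (2.39). With 6 other microglial genes as the source (P2ry12, Tmem119, Siglech, Cx3cr1, Gpr34 and P2ry13) no class reached 1.5 for Ctss, and neutrophil-like cells had 1.46. Cd68 was above 1.5 in neutrophil-like (11.1, and 8.35 to 28.7 over the libraries), endothelial-like (4.87, from 103 UMIs) and mural-cell-like cells (2.07, from 9 UMIs). The same 3 classes were above 1.5 with the other source genes (6.77, 4.23 and 2.38). Library 3 held 988 of 1007 endothelial-like and 170 of 183 mural-cell-like cells. In single libraries Cd68 also passed 1.5 in T-cell-like (up to 3.67), oligodendrocyte-like (1.86), neuroblast-like (1.85) and astrocyte-like cells (1.60). The 3.67 came from library 3, with 23 T-cell-like cells, and 184 of the 185 Cd68 UMIs of that class lay outside this library. The 1.60 came from library 2, and 7 of the 14 Cd68 UMIs of astrocyte-like cells lay outside it. These 2 values thus rest on very few UMIs.

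The remaining genes were above the level carried with C1q in most classes. That level takes only microglia-gated cells as the source of free RNA. RNA freed by other classes, such as Lamp1 from oligodendrocyte-like cells, where it was highest, was not in the expected UMIs. A ratio over 1.5 alone therefore does not show that a class expresses the gene. Summed over libraries, Ctsb, Ctsd, Ctsz, Lamp1, Hexa and Grn reached 1.5 in all 11 classes. Ctsl did so in 9, not in T-cell-like (1.37) and NK-cell-like cells (1.28). In single libraries Grn fell to 0.906 in NK-cell-like, 1.24 in astrocyte-like, 1.26 in choroid-plexus-like and 1.38 in T-cell-like cells. Ctsz fell to 1.29 in neuron-like cells of 1 library. In oligodendrocyte-like cells the ratio of Lamp1 was 117 (73.7 to 245 over the 3 libraries) and that of Ctsb 9.97 (6.37 to 34.2). In endothelial-like cells, of which library 3 held 988 of 1007, Lamp1 had 64.1 and Ctsl 25.2. These ranges over libraries were wide, so no order of the ratios is given. With the other source genes, which the microglia gate did not use, 70 pairs reached 1.5. In T-cell-like cells, Ctsb (1.49), Ctsz (1.22) and Grn (1.06) were then under it. Ctsz and Grn were also under it in NK-cell-like (1.39 each) and neuron-like cells (1.09 and 1.49), and Ctsd in neuroblast-like cells (1.33). Lamp1 and Hexa still reached 1.5 in all 11 classes.

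**Figure D2:**
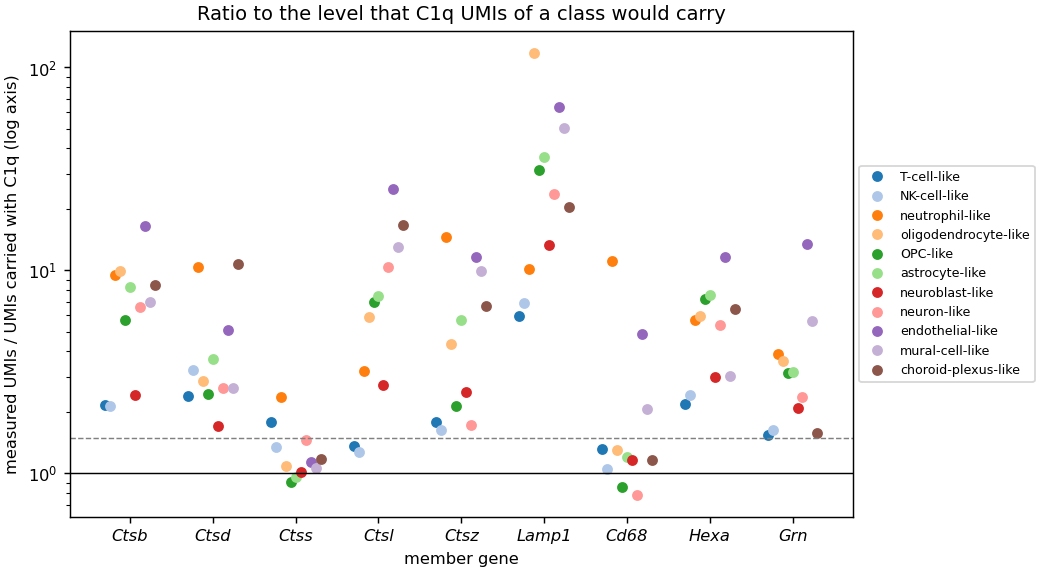
Measured UMIs divided by the UMIs carried with C1q (log axis) for each gene, with 1 point per cell class outside the microglia gate. The solid line is a ratio of 1 and the dashed line 1.5. Ctss points cluster near 1, Cd68 stands clearly above 1.5 in neutrophil-like and endothelial-like cells, and all Lamp1 points lie above 5.

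The second question was whether the genes differ within microglia between cells without and with Cst7. Cst7 encodes cystatin F, an inhibitor of lysosomal cysteine proteases that marks activated microglia. Cells with no Cst7 UMI numbered 1432 in library 1, 1826 in library 2 and 2501 in library 3, and cells with at least 2 numbered 1845, 3999 and 9. Library 3 thus gave no comparison. A gene was counted as higher or lower where its CPM differed by at least 1.5-fold in the same direction in both libraries 1 and 2.

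Of the 9 genes 7 were higher with Cst7 and 0 were lower. Among the 6693 genes with at least 10 CPM in the gate, 3.68% were higher and 23.2% lower. The median log2 fold of the 9 genes was 0.84 against -0.35 for all genes tested. The count describes these 2 libraries and has no replicate check. The 9 genes and the lists below were chosen with earlier results of these data known. Their counts beside the shares of all genes are thus a description only.

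Depth differed between the groups and was matched as a check. Median UMIs per cell were 4964 without and 12665 with Cst7 in library 1, and 4682 and 11443 in library 2. When cells were compared within bins of 1000 UMIs, 6 of the 9 genes were higher and 0 lower, against 2.39% and 16.0% of all genes, and the median log2 fold was 0.86 against -0.33. The gene that left the count was Cd68. The bins used held 76.9% of the cells with Cst7 in library 1 and 82.3% in library 2. The rest, in bins with fewer than 5 cells lacking Cst7, are not covered by the matched folds. In the deepest range of UMIs, 148 cells without Cst7 stood beside 1171 with it in library 1, and 146 beside 2392 in library 2. The median C1q share of those without Cst7 was 1.75% and 1.31% there, against 1.92% and 1.99% in all cells without it. Deep cells with Cst7 had 2.64% and 2.88%. The 10 markers of resting microglia summed to 5928 and 4425 CPM in the deep cells without Cst7 and to 5207 and 5071 CPM in those with it. Over all cells without Cst7 the sums were 9294 and 9172 CPM. The deep cells without Cst7 thus differed from the rest of their group, and the part of this in the matched folds was not tested.

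Over all cells, the genes of cathepsin D and cathepsin B had the largest folds of the 9. Ctsd had 4967 CPM without and 11291 CPM with Cst7 in library 1, and 4581 and 9795 CPM in library 2. The folds were 2.27 (2.25 to 2.30) and 2.14 (2.12 to 2.16), and 2.09 when matched on depth. Ctsb had 1686 and 3534 CPM in library 1 and 1602 and 3514 in library 2, folds of 2.10 and 2.19, and 1.81 when matched on depth. Both genes were thus higher with Cst7 in each of the 2 libraries.

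Ctsz had 1734 CPM without Cst7 in both libraries, and 3349 and 3535 CPM with it. Ctsl had 1901 and 1902 CPM without and 3021 and 3841 CPM with Cst7. The libraries agreed closely for both genes in cells without Cst7, whereas for Ctsl they parted in cells with it, at folds of 1.59 and 2.02. Matched on depth, the folds were 2.05 for Ctsz and 2.13 for Ctsl.

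Ctss went its own way among the cathepsins. It had 5634 CPM without and 5153 with Cst7 in library 1, and 5314 and 5469 in library 2. The folds, 0.915 (0.905 to 0.925) and 1.03 (1.02 to 1.04), lay on opposite sides of 1, and were 1.09 and 1.25 when matched on depth. The direction for Ctss thus depended on the library and on the match.

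Hexa had 504 and 518 CPM without and 843 and 831 CPM with Cst7, folds of 1.67 and 1.60. Grn had 763 and 639.9 CPM without and 1339.6 and 1220.1 CPM with Cst7, folds of 1.76 and 1.91. Hexa and Grn were thus higher with Cst7 in each of the 2 libraries. Cd68 had 402 and 397 CPM without and 657 and 649.7 CPM with Cst7, a fold of 1.64 in both libraries, and matched on depth the folds were 1.48 and 1.54, so library 1 fell short of 1.5. Lamp1 had 649 and 664 CPM without and 966 and 889 CPM with Cst7. Its folds of 1.49 and 1.34 were below 1.5, and 1.31 and 1.11 when matched on depth.

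**Figure D3:**
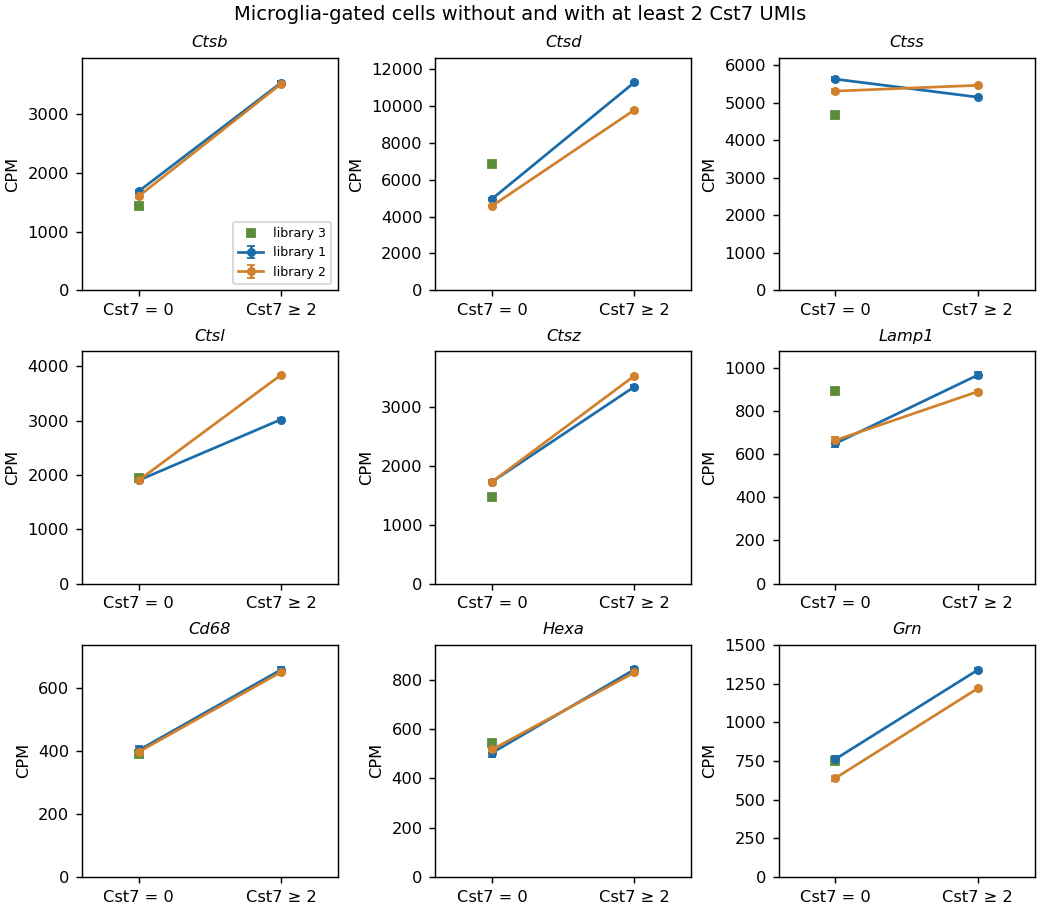
Level of each gene in CPM in microglia-gated cells with no Cst7 UMI and with at least 2, for libraries 1 and 2 (lines, with 95% counting intervals) and, for cells without Cst7, library 3 (squares). All lines except that of Ctss in library 1 go up, and the Ctsd square at 6873 CPM lies above both other libraries.

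Library 3 also differed among cells without Cst7, and not always as it did over the whole gate. Ctsd was at 6873 CPM there, above 4967 and 4581 CPM in libraries 1 and 2. Over the whole gate library 3 had instead been the lowest for Ctsd. Lamp1 was at 893 CPM in library 3 without Cst7, above 649 and 664 CPM. Ctss (4679 CPM) and Ctsb (1436 CPM) were the lowest of the 3 libraries. Ctsl (1942 CPM) and Cd68 (389 CPM) were close to the other libraries. With the group widened to at least 1 Cst7 UMI, library 3 had 76 such cells, 67 of them with exactly 1. Its folds ran from 1.06 for Cd68 to 1.29 for Ctsz, with none of the 9 genes at 1.5. Under the same limit libraries 1 and 2 each had 7 genes at 1.5. There, however, 1845 of 2253 and 3999 of 4712 such cells had at least 2 Cst7 UMIs, so the groups were not alike. At exactly 1 UMI Ctsd was 5502, 5313 and 7833 CPM in libraries 1, 2 and 3, against 4967, 4581 and 6873 CPM at 0.

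Levels also moved with the number of Cst7 UMIs per cell. Ctsd in library 1 was 4967 CPM at 0 UMIs, 5502 at 1, 7490.0 at 2 to 4, 8961 at 5 to 9 and 12801 at 10 or more, and in library 2 it was 4581, 5313, 6229.6, 7633 and 10775 CPM. Each of the other members except Ctss was also higher at all 4 steps in both libraries. The share of all genes that rose at every step is not given, so nothing particular to the 9 genes is read from this. Ctss was lower at all 4 steps in library 1 and was highest at 5 to 9 UMIs (5878 CPM) in library 2. Median depth climbed along the same steps, from 4964 to 15758 UMIs in library 1, and its part in the steps was not tested.

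**Figure D4:**
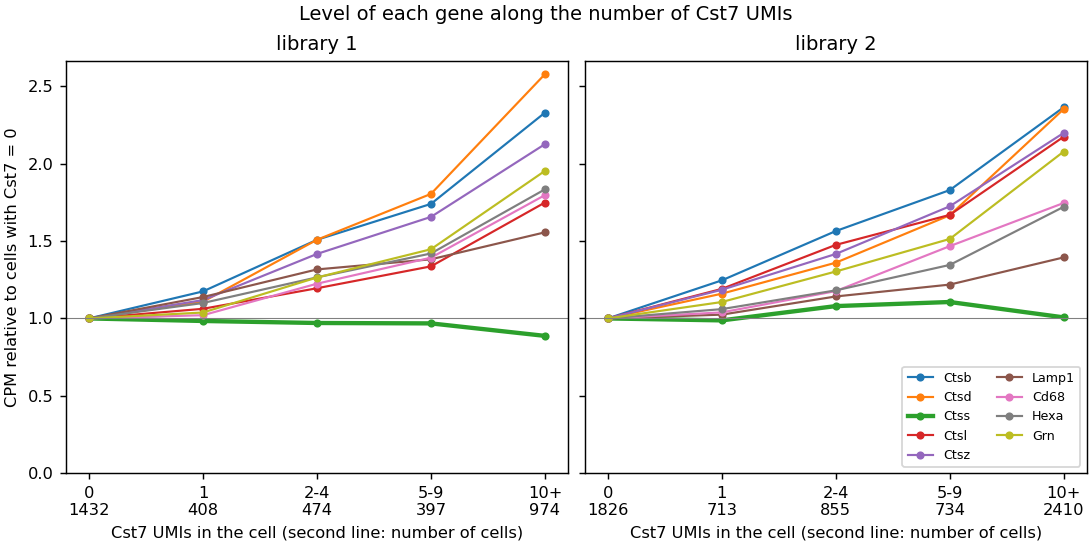
CPM of each gene relative to cells with no Cst7 UMI, against the number of Cst7 UMIs per cell in libraries 1 and 2, with the number of cells under each step. Ctsd in library 1 ends at 12801 CPM from 4967, and Ctss (thick line) stays near its starting level.

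Depth was also evened by drawing 2000 UMIs from every cell at random. The groups were still those set by Cst7 UMIs before thinning, so the counts of the genes were evened but not the grouping. Cells with fewer were dropped, 232 without and 81 with Cst7 in library 1 and 256 and 107 in library 2. The mean of Ctsd was then 9.68 UMIs per cell without and 22.5 with Cst7 in library 1, and 9.22 and 18.6 in library 2. Cd68 was seen in 50.2% of cells without and 65.9% with Cst7 in library 1, and in 49.6% and 65.7% in library 2; before thinning these shares were 74.8% and 93.6%, and 73.3% and 94.0%. Ctss was seen in at least 99.0% of the thinned cells in each group.

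Other marks moved with the groups. The summed CPM of 10 resting-microglia genes went from 9294 to 5496 in library 1 and from 9172 to 5262 in library 2, and 8 of the 10 were lower by the count rule, or 5 when matched on depth. Of 9 measured activation genes 7 were higher, with Spp1 (osteopontin) at 7.52-fold and Lpl (lipoprotein lipase) at 6.03-fold, while P2ry12 and Tmem119 were at 0.228-fold and 0.286-fold. Matched on depth, 8 of the 9 activation genes were higher, and Spp1, P2ry12 and Tmem119 were at 3.22-, 0.401- and 0.468-fold. The log2 fold of Lpl was then 2.14 in library 1, and in library 2 it was 5.67-fold higher with Cst7. Of 12 stress and immediate early genes 8 were lower, and 2 when matched on depth. The 5 neutrophil markers summed to 472 and 383 CPM without and 207 and 93.1 CPM with Cst7. Of 3 of them tested, 2 were lower, also when matched on depth. The 5 oligodendrocyte markers summed to 384 and 694 CPM without and 382 and 286 CPM with Cst7. By the count rule 0 of these 5 were lower over all cells and 5 when matched on depth, at a median log2 fold of -1.84. The matched cells without Cst7 thus held relatively more oligodendrocyte RNA, and its part in the matched folds was not tested. The 4 dividing-cell genes above 10 CPM were all higher, and 1 when matched on depth. The part of these marks in the result was not tested. The border macrophages of the gate fell almost wholly in the Cst7 = 0 group, with 10 and 6 cells in libraries 1 and 2.

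Other lysosomal genes were counted by the same rule. Of 85 other lysosome genes in 7 lists, 77 passed the filter, 10 were higher and 6 lower, against 3.68% higher and 23.2% lower of all genes, and their median log2 fold was 0.05. Among the proteases, Ctsa and Dpp7 were higher and Ctsf and Lgmn lower, of 10 tested. Among the glycosidases and sulfatases 5 of 19 were higher and 2 lower. Of the lipid-handling genes 2 of 11 were higher, and of the other membrane proteins 1 of 13. None of the 14 V-ATPase genes, which acidify the lysosome, was counted, nor was any of the 8 sorting genes and transcription factors except Tfe3, which was lower. Matched on depth, 10 of the 77 were higher and 3 lower, against 2.39% and 16.0% of all genes.

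The genes named by rule among these were the 3 highest and 3 lowest with at least 50 CPM. Pld3, an endolysosomal nuclease, had 88.0 CPM without and 294 with Cst7 in library 1 and 84.1 and 260.1 in library 2. Cd63, a tetraspanin of late endosomes, had 768 and 2045 CPM, then 808 and 2119.9. Dpp7, a dipeptidase, was 2.37-fold higher over both. Matched on depth, the folds of Pld3, Cd63 and Dpp7 were 2.12, 1.83 and 1.90. The lowest was Cst3, the secreted cysteine protease inhibitor cystatin C, at 35446 and 16167 CPM in library 1 and 37234 and 17374 in library 2. Ctsf was at 0.611-fold and Lgmn, the asparaginyl endopeptidase that processes other cathepsins, at 0.618-fold. When matched on depth Cst3, Ctsf and Lgmn were at 0.674-, 0.803- and 0.778-fold and no longer passed the 1.5-fold count.

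**Figure D5:**
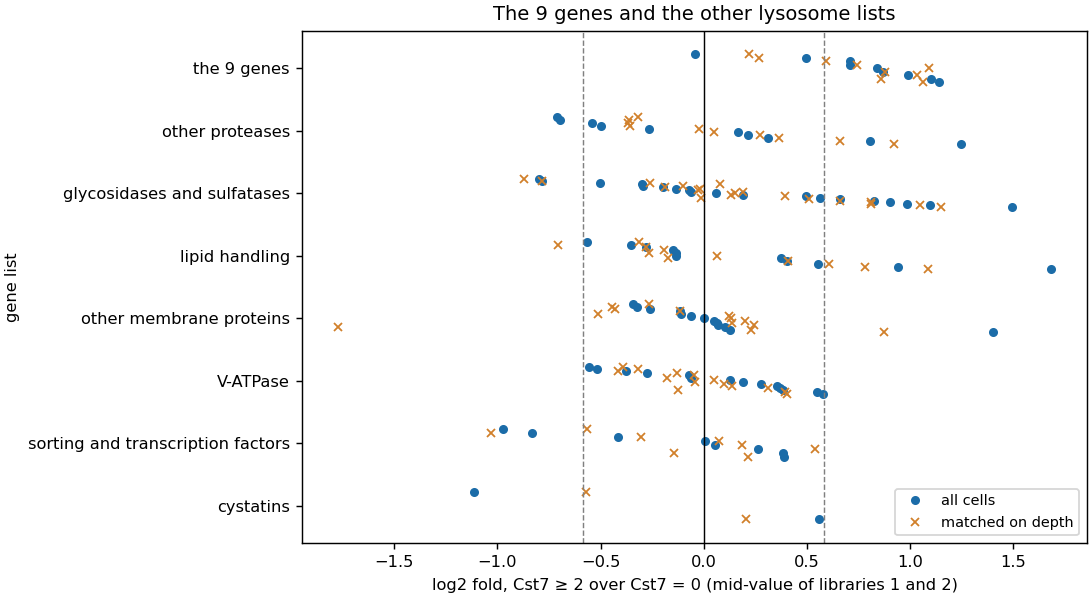
Log2 fold between cells with at least 2 Cst7 UMIs and cells with none, as the mid-value of libraries 1 and 2, for the 9 genes and 7 lists of other lysosome genes (rows), over all cells (circles) and matched on depth (crosses). Dashed lines mark 1.5-fold. The 9 genes lie mostly to the right of the upper line, whereas the V-ATPase genes lie between the lines.

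Across the 13 classes, the 5 genes whose log2(CPM + 10) was most like the mean of the 9 were Ccl9 (Pearson r = 0.966), P2ry13 (0.966), Unc93b1 (0.959), Cxcl16 (0.956) and Siglech (0.955). The classes share libraries and free RNA, so r is a description only. Unc93b1, which carries toll-like receptors to endosomes, had 354 CPM in microglia-gated and 339 CPM in border-macrophage-like cells, against 15.4 CPM in T-cell-like cells.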

How the data were processed

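The authors made 1 matrix with Cell Ranger 3.1.0 and STAR on mm10, down-sampled reads across libraries and deposited UMI counts per gene and barcode, without normalization per cell. Per the labels, libraries were prepared with the Chromium 3' v3 kit. Down-sampling lowers the depth of the deeper libraries, and the deposited matrix still holds barcodes of low quality.

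Here cells were kept with at least 1000 UMIs and at most 30% mitochondrial UMIs. Classes other than microglia needed C1q under 0.5% of UMIs, 3 of 5 markers with a UMI and the 5 together at 0.1% of UMIs (0.5% for oligodendrocyte-like); no doublet caller was run. B-cell-like, monocyte-like, dendritic-cell-like, fibroblast-like and ependymal-like cells were under 50 and were not described. Levels are CPM of summed counts, with exact Poisson intervals. Folds were taken within libraries with at least 50 cells in each group, with exact conditional binomial intervals. Matching on depth used bins of 1000 UMIs with at least 5 cells lacking Cst7. The fold limit of 1.5 is that of the study. The fold and count rules were tried on simulated cells whose 2 groups shared 1 depth distribution and were set by label. That trial does not cover the depth difference of the real groups or the split by Cst7 UMIs. The members and lists were chosen with earlier results of these data known. Named genes were the 9 members, the 3 highest and 3 lowest folds of the other lysosome lists at 50 CPM or more, 2 of the activated and 2 of the homeostatic list, and the 5 genes most alike over classes. Alternatives changed the cell filters, gates, scaling, depth and libraries. Python 3.11.15, NumPy 2.4.6, SciPy 1.17.1, pandas 2.3.3 and Matplotlib 3.10.9 were used.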

Additional observations from a re-analysis of the deposited data

How the results depend on the processing

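The count of 7 genes higher with Cst7 was 0 when 1 Cst7 UMI was enough, because library 3 then entered the comparison and had no gene at 1.5-fold. Of its 76 cells with Cst7, 67 had exactly 1 UMI. Under the other settings it was 5 to 7: 5 with cells thinned to 2000 UMIs and 1 Cst7 UMI enough, 6 when matched on depth and 7 with each library left out. Leaving a library out could not lower this count. Without library 1 or 2 the rule asked for 1 library only, and library 3 gave no comparison in the first place. None of the 9 was lower under any setting. Over all genes 246 were higher and 1552 lower, against 160 and 1073 matched on depth, 162 and 1104 with thinned cells, 386 and 2845 pooled over libraries, 324 and 2357 without library 1, 576 and 4505 with no filter on low values, and 40 and 124 with 1 Cst7 UMI enough. The count of 8 genes highest in the C1q gate was 8 under all settings tried. Pairs of gene and class at 1.5 or more over the carried level were 64 to 80 with libraries left out, 64 being of 81 pairs, since endothelial-like and mural-cell-like cells then fell under 50. The median log2 fold over genes with at least 50 CPM was -0.09 and -0.11 in libraries 1 and 2, and scaling by it left 7 genes higher. Scaling without activated, cystatin and member UMIs was chosen after seeing the data and gave 7 genes. Over all settings the log2 fold of Ctss ran from -0.13 to 0.22 and that of Lamp1 from 0.24 to 0.61. No paired analysis was possible because each labelled condition has 1 library and the barcode suffixes are tied to none. Without replicates, the counting intervals leave out the spread between mice.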
